A study of Mus musculus with 18 samples.

Results

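The 9 genes described here encode the proteins that carry the insulin signal from the cell surface to the nucleus. They are the insulin receptor Insr, the docking proteins Irs1 and Irs2, the PI3-kinase subunit Pik3r1, the kinases Akt1 and Akt2, and the transcription factors Foxo1, Foxo3 and Foxo4. They were chosen by gene name from the 45706 genes of the count table, with earlier results of these data known. All 9 had enough counts to enter the 14788 genes tested. Across 18 libraries of brown adipocytes their levels differed little between labelled times after norepinephrine and by up to 1.84-fold between sets of replicate numbers.

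The cells were BMC, an immortalised mouse line of brown preadipocytes differentiated in culture, so every value comes from 1 line. Every culture received insulin at 20 nM and triiodothyronine at 1 nM from confluence onward, and dexamethasone at 1 µM, indomethacin at 0.125 mM and isobutylmethylxanthine at 0.5 mM until day 2. On day 7 cells were either not induced (0 h) or stimulated with norepinephrine at 1 µM and sampled at 4 h or 24 h, with 6 libraries a time numbered 1 to 6 in their titles. The stated question of the series is which RNAs change as norepinephrine induces lipolysis. No label says whether a number stands for a culture, a plate or a day, and all 18 libraries carry the same batch label, 1. Whether the spread between libraries, which the p-values measure, is biological or technical cannot be told apart.

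Insulin binding activates its receptor, which phosphorylates the docking proteins; these recruit PI3-kinase, whose lipid product brings AKT kinases to the membrane to be activated. AKT phosphorylates FOXO factors, which then leave the nucleus and stop driving genes of fasting, cell cycle arrest and autophagy. In brown fat the pathway promotes glucose uptake and lipid storage, while norepinephrine acts through cAMP to release fatty acids from stored fat.

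Before the results, 3 features of the libraries bear on every value. Totals of expected counts ran from 7010742 to 26501223, with medians of 21907138 at 0 h, 17253681 at 4 h and 21812845 at 24 h. In 24 h replicate 5, which had the lowest total, 41.5% of counts came from Yam1 and Gm26917, genes known to collect ribosomal RNA reads, against 6.78% to 10.6% in the other 17 libraries. Over all genes tested, the set of replicate numbers (1 and 4, 2 and 5, 3 and 6) held 62.7% of the variance of the median gene in log2 CPM and the labelled time 3.78%. CPM denotes counts relative to library size after TMM scaling, a correction for differing RNA composition between libraries. The grouping of numbers into these 3 sets was proposed with earlier results of these data known, so the tests between sets describe these libraries. What a set stands for cannot be told from the labels.

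The labelled cell type was checked against its markers. Fabp4 was measured at 1807 to 2884 CPM and Adipoq at 418 to 877 CPM, both products of mature fat cells. Ucp1, the uncoupling protein that defines brown fat, was low at 1.08 to 18.03 CPM. Of the other brown adipocyte markers, Cidea (12.51 to 17.23 CPM) and Prdm16 (6.62 to 17.64 CPM) were also low. Lipe, Cebpa, Plin1 and Pparg had medians of 134.8 to 289.1 CPM. Adgre1 of macrophages, Cdh5 of endothelial cells and Myf5 of muscle progenitors were at 0 in all 18 libraries, which allows up to 3 counts in each. In the same lists Cd68 of macrophages had 2.39 to 3.97 CPM, Pecam1 of endothelial cells 0.0973 to 0.712 and Acta1 of muscle 0.487 to 4.20. The fibroblast collagens Col1a1 (393 to 1037 CPM) and Col3a1 (307 to 616 CPM) were well above 0.

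Promoter sequences from RefSeq (build GRCm38.p6) were found for 7 of the 9 genes, 12 promoters in all, and are shown where they hold a motif tied to FOXO or insulin action. Both strands of each promoter, from 250 bases before to 50 after the start, were searched for the FOXO core TGTTTAC and the insulin response element CAAAACAA. They were also searched for the cAMP response element TGACGTCA and its shorter form TGACG, which the full element contains. The 2 docking protein promoters each hold the insulin response element on the reverse strand, where it reads TTGTTTTG, at 33 bases before the start in Irs1 and 38 in Irs2. Irs1 also holds TGACG on the reverse strand, and the more distal of 2 Akt1 promoters holds the FOXO core 161 bases before its start. In the lines below, read 5′ to 3′ on the strand of the gene, which is the minus strand for all 3, capitals mark these matches.
Irs1, chr1:82291440-82291589: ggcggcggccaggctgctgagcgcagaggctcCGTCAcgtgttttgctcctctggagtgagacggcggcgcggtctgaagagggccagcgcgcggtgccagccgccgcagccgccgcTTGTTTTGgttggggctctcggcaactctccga
Irs2, chr8:11008930-11009079: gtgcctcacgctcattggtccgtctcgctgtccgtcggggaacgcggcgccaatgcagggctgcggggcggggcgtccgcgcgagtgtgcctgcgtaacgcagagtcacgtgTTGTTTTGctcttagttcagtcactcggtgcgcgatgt
Akt1, chr12:112674984-112675084: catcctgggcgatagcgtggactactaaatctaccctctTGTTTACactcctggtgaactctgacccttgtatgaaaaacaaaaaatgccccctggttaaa
Of all 32851 mouse promoters of this length, 2.51% held the insulin response element, 3.65% the FOXO core, 1.79% the full cAMP element and 20.8% its shorter form. The shorter form was also found in 1 promoter of Pik3r1, 2 of Akt2 and 1 of Foxo3. None of the 4 motifs was found in the Foxo1 promoter, and the full cAMP element was found in none of the 12. A match describes the letters only.

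None of the 9 genes passed the test between labelled times. In edgeR's quasi-likelihood test with Benjamini-Hochberg adjustment, 0 of 9 passed at an adjusted p under 0.05 in each of the 3 time comparisons, as did 0 of all 14788 genes (0%). Unadjusted p was under 0.05 for 173, 158 and 137 genes (1.17%, 1.07% and 0.926%) in 4 h against 0 h, 24 h against 0 h and 24 h against 4 h. DESeq2 and limma-voom also called 0. These models left out the number set, so differences between sets counted as error and made the time tests less sensitive. With the replicate number as a block those unadjusted counts were 1461, 1155 and 757. After adjustment the block left 1 gene of all called at 24 h against 0 h (0.00676%), which was no member, and 0 in the other comparisons. No member had groups without overlap between times, against 0.0676%, 0.0406% and 0% of all genes in the same 3 comparisons.

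Insr showed the lowest time estimate of the 9. It ranged from 229 to 326 CPM at 0 h (median 232), from 212 to 338 at 4 h (median 224) and from 194 to 314 at 24 h (median 231). The 3 groups covered nearly the same range. At 24 h against 0 h its log2 fold change was -0.10 (SE 0.14, 95% interval -0.40 to 0.20, edgeR adjusted p = 1), and -0.10 (SE 0.04, 95% interval -0.19 to -0.01, adjusted p = 0.5787) with the replicate block. Of the 6 numbers, 3 were above their own 0 h value and 3 below.

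Akt1 was the 1 member whose 6 numbers all moved the same way between 2 times, an observation made after the values were seen. It ranged from 53.9 to 75.0 CPM at 0 h (median 66.2), from 57.8 to 76.6 at 4 h (median 69.9) and from 52.1 to 76.5 at 24 h (median 67.8). Each library at 4 h was above the 0 h library of the same number, by a mean of 0.07 ± 0.03 on the log2 scale (SD, n = 6). The edgeR estimate was 0.07 (SE 0.11, adjusted p = 1), and 0.07 (SE 0.03, 95% interval 0.01 to 0.14, adjusted p = 0.4815) with the block, so the step did not pass in either after adjustment. The other 7 genes had estimates between -0.07 (Irs1) and 0.05 (Foxo3) at 4 h against 0 h and between -0.08 (Irs1) and 0.01 (Akt2) at 24 h.

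Between number sets most of these genes differed by more than the spread within sets. In bulk RNA, fewer cells of a type and less RNA per cell cannot be told apart. Against numbers 1 and 4, numbers 2 and 5 had 7 members higher and 2 lower, so all 9 were called, where 59.5% of all genes were (29.6% higher and 29.9% lower). In numbers 3 and 6 against 1 and 4, 3 members were higher and 3 lower, 6 of 9 beside 59.7% of all genes. In numbers 3 and 6 against 2 and 5, 2 were higher and 7 lower, again 9 of 9 beside 57.1%. Each pair of comparisons shares 1 set of libraries. Without 24 h replicate 5 the counts were again 9, 6 and 9, as they were with the replicate block, beside 60.1%, 60.3% and 57.6% of all genes. Scaling by library totals alone left 3, 2 and 3 members called, namely Irs1, Irs2 and Pik3r1 in the first comparison, Irs1 and Akt1 in the second and Irs2, Pik3r1 and Akt1 in the third. Of all 14788 genes that scaling called 3788, 4536 and 5130. Groups did not overlap for 7, 4 and 5 members in these 3 comparisons, against 35.3%, 38.6% and 29.8% of all genes. The number set accounted for 60.8% (Akt2) to 96.8% (Pik3r1) of a member's variance in log2 CPM, and the labelled time for 0.322% (Irs2) to 3.07% (Insr).

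**Figure D1:**
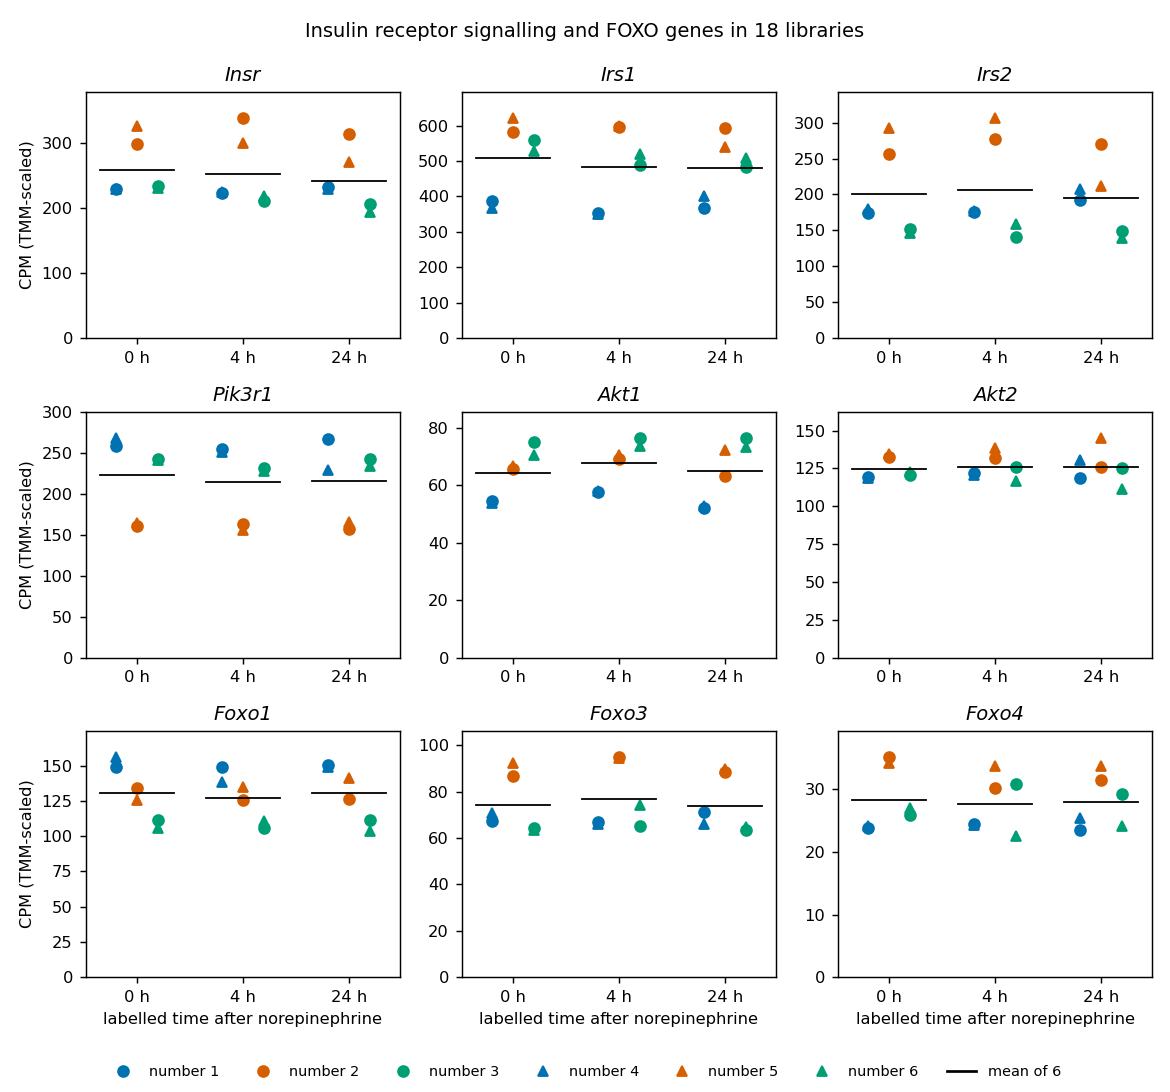
CPM after TMM scaling of each of the 9 genes in the 18 libraries, by labelled time; colour gives the number set, shape the number within it, and the bar the mean of 6. The bars lie level across times while colours separate, most for Pik3r1, whose libraries of numbers 2 and 5 lie at 155 to 165 CPM and all others at 227 to 268.

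The receptor gene Insr (ENSMUSG00000005534, mm10 chromosome 8, 3122061 to 3279617, minus strand) was highest in numbers 2 and 5. Its level was 223 to 232 CPM in numbers 1 and 4 (median 229), 271 to 338 in 2 and 5 (median 307) and 194 to 233 in 3 and 6 (median 215). All 6 libraries of 2 and 5 lay above the other 12. The difference was 1.35-fold over 1 and 4 (log2 0.44, SE 0.04, edgeR adjusted p = 1.599e-09) and 1.43-fold over 3 and 6 (log2 of 3 and 6 against 2 and 5 -0.52, SE 0.04, adjusted p = 6.894e-11). Numbers 3 and 6 against 1 and 4 did not pass (log2 -0.08, 95% interval -0.17 to 0.01, adjusted p = 0.1125).

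Irs1 and Irs2, which dock PI3-kinase to the active receptor, were ordered differently across the sets. Irs1 (ENSMUSG00000055980, chromosome 1, 82233101 to 82291416, minus strand) had 350.2 to 401 CPM in numbers 1 and 4 (median 367), 540.4 to 621 in 2 and 5 (median 594) and 482 to 558 in 3 and 6 (median 514). Its 1 and 4 libraries lay below the other 12. Against 1 and 4 it was 1.59-fold higher in 2 and 5 (log2 0.67, SE 0.04, edgeR adjusted p = 8.839e-14) and 1.39-fold higher in 3 and 6 (log2 0.47, SE 0.04, adjusted p = 1.035e-10). The smaller difference of 3 and 6 against 2 and 5 (log2 -0.20, SE 0.04, adjusted p = 0.000164), whose ranges overlap, became 0.07 and was not called when libraries were scaled by their totals alone.

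Irs2 (ENSMUSG00000038894, chromosome 8, 10984681 to 11008458, minus strand) had the widest spread of the 9 and separated all 3 sets. It was measured at 175 to 207 CPM in numbers 1 and 4 (median 178), 212 to 306 in 2 and 5 (median 274) and 139 to 159 in 3 and 6 (median 148). No ranges overlap. Numbers 2 and 5 were 1.47-fold above 1 and 4 (log2 0.56, SE 0.07, edgeR adjusted p = 9.241e-07) and 1.84-fold above 3 and 6 (log2 of 3 and 6 against 2 and 5 -0.88, SE 0.07, adjusted p = 2.361e-09). Numbers 3 and 6 were lower than 1 and 4 (log2 -0.32, SE 0.07, adjusted p = 0.0004716), which was not called with totals-only scaling (-0.16, adjusted p = 0.522) or with numbers 4, 5 and 6 alone (-0.35, adjusted p = 0.1074). Within 24 h alone, 2 and 5 against 1 and 4 was log2 0.29 and was not called (edgeR adjusted p = 0.06295). The lowest library of 2 and 5 was 24 h replicate 5, the library rich in ribosomal RNA. Without it the estimates of 2 and 5 against 1 and 4, 3 and 6 against 2 and 5, and 3 and 6 against 1 and 4 were 0.61, -0.94 and -0.32, all called. The Irs2 to Irs1 ratio of counts per kb of exon, which needs no scaling between libraries, was 0.394 to 0.446 in 3 and 6. It was 0.653 to 0.759 in 1 and 4 and 0.569 to 0.738 in 2 and 5, all above every library of 3 and 6.

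Pik3r1, the regulatory subunit that holds the catalytic subunit of PI3-kinase and binds the docking proteins, ran opposite to the receptor. Pik3r1 (ENSMUSG00000041417, chromosome 13, 101680563 to 101768217, minus strand) had 228 to 268 CPM in numbers 1 and 4 (median 256), 155 to 165 in 2 and 5 (median 162) and 227 to 242 in 3 and 6 (median 238). The 2 and 5 libraries lay below all others with no overlap. They were 1.59-fold lower than 1 and 4 (log2 -0.67, SE 0.04, edgeR adjusted p = 7.038e-15), and 3 and 6 stood above them by log2 0.56 (SE 0.04, adjusted p = 4.24e-13). The step of 3 and 6 below 1 and 4 was small (log2 -0.11, SE 0.04, adjusted p = 0.01103), turned to 0.06 with totals-only scaling, and did not pass without 24 h replicate 1 (log2 -0.08, adjusted p = 0.05553). The ratio of Insr to Pik3r1 per kb of exon was 1.201 to 1.53 in 2 and 5, above the 0.627 to 0.737 of 1 and 4 and the 0.609 to 0.709 of 3 and 6.

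Akt1 and Akt2 encode the kinases that PI3-kinase signalling activates, Akt2 being the form most tied to glucose uptake. Akt1 (ENSMUSG00000001729, chromosome 12, 112653821 to 112674884, minus strand) was lowest in numbers 1 and 4, at 52.1 to 58.2 CPM (median 54.1), with 63.3 to 72.3 in 2 and 5 (median 67.9) and 70.7 to 76.6 in 3 and 6 (median 74.3). The 1 and 4 libraries lay below all 12 others. Akt1 was 1.23-fold higher in 2 and 5 (log2 0.30, SE 0.04, edgeR adjusted p = 5.476e-08) and 1.36-fold higher in 3 and 6 (log2 0.44, SE 0.03, adjusted p = 1.295e-11). Numbers 3 and 6 also exceeded 2 and 5 (log2 0.14, SE 0.04, adjusted p = 0.0009978), with ranges that overlap. That difference was 0.07 (adjusted p = 0.3719) with numbers 4, 5 and 6 alone and was not called within 4 h or within 24 h.

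Akt2 (ENSMUSG00000004056, chromosome 7, 27591552 to 27640826, plus strand) varied least of the 9. It had 119 to 130.5 CPM in numbers 1 and 4 (median 120.0), 126 to 145 in 2 and 5 (median 133) and 111 to 126 in 3 and 6 (median 122). All 3 ranges overlap. Numbers 2 and 5 were higher than 1 and 4 by log2 0.14 (SE 0.04, edgeR adjusted p = 0.002744), which fell to 0.02 (adjusted p = 0.9447) with totals-only scaling and was not called within 4 h or within 24 h. Numbers 3 and 6 were below 2 and 5 by log2 -0.15 (SE 0.04, adjusted p = 0.001368), which turned to 0.12 with totals-only scaling. With that scaling and without 24 h replicate 5 it was -0.02 and not called. It was also not called within 4 h, within 24 h or with numbers 1, 2 and 3 alone (-0.07, edgeR adjusted p = 0.2032). The difference of 3 and 6 against 1 and 4 did not pass (log2 -0.01, 95% interval -0.09 to 0.07, adjusted p = 0.8065). A pseudogene, Akt2-ps, resembles Akt2, and salmon may divide reads between them, so its level is less certain. The Akt2 to Akt1 ratio per kb separated all 3 sets, at 1.19 to 1.42 in 1 and 4, 1.10 to 1.16 in 2 and 5 and 0.872 to 0.997 in 3 and 6.

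The 3 FOXO genes did not move together. Foxo1 (ENSMUSG00000044167, chromosome 3, 52268336 to 52353221, plus strand), the FOXO factor best known in adipocyte differentiation and glucose metabolism, differed in all 3 set comparisons. Its level was 138 to 156 CPM in numbers 1 and 4 (median 149), 126 to 141 in 2 and 5 (median 130.3) and 103 to 112 in 3 and 6 (median 108). Only 3 and 6 lay apart from both other sets. Foxo1 was lower than in 1 and 4 by log2 -0.18 in 2 and 5 (SE 0.04, edgeR adjusted p = 9.328e-05) and by -0.46 in 3 and 6 (SE 0.04, adjusted p = 1.322e-11). Neither was called with totals-only scaling (-0.30, edgeR adjusted p = 0.2009, and -0.30, adjusted p = 0.1839). The difference of 2 and 5 against 1 and 4 was also not called within 4 h or within 24 h. The step of 3 and 6 below 2 and 5 (log2 -0.28, SE 0.04, adjusted p = 3.641e-07) became 0.00 with totals-only scaling, where 24 h replicate 5 is scaled with its ribosomal RNA.

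Foxo3 (ENSMUSG00000048756, chromosome 10, 42181841 to 42276755, minus strand), a driver of autophagy and stress resistance genes, was highest in numbers 2 and 5. It had 66.1 to 71.5 CPM in 1 and 4 (median 67.2), 86.8 to 94.8 in 2 and 5 (median 91.2) and 63.5 to 74.2 in 3 and 6 (median 64.5). All libraries of 2 and 5 lay above the other 12. The difference was 1.33-fold over 1 and 4 (log2 0.42, SE 0.04, edgeR adjusted p = 3.196e-10) and 1.39-fold over 3 and 6 (log2 -0.47 for 3 and 6 against 2 and 5, SE 0.04, adjusted p = 2.93e-11). Numbers 3 and 6 against 1 and 4 did not pass (log2 -0.06, 95% interval -0.13 to 0.02, adjusted p = 0.1953).

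Foxo4 (ENSMUSG00000042903, chromosome X, 101254528 to 101260873, plus strand) was the least abundant of the 9. It had 23.5 to 25.4 CPM in numbers 1 and 4 (median 24.2), 30.3 to 35.1 in 2 and 5 (median 33.8) and 22.5 to 30.8 in 3 and 6 (median 26.5). The 2 and 5 libraries lay above 1 and 4 and overlapped 3 and 6. Foxo4 was 1.37-fold higher in 2 and 5 than in 1 and 4 (log2 0.45, SE 0.06, edgeR adjusted p = 2.429e-07) and lower in 3 and 6 than in 2 and 5 (log2 -0.30, SE 0.06, adjusted p = 8.98e-05). The latter was -0.04 (adjusted p = 0.8567) with totals-only scaling and was not called within 4 h or within 24 h. Its excess in 3 and 6 over 1 and 4 (log2 0.16, SE 0.06, adjusted p = 0.02306) rested on single libraries. It missed the threshold when 1 library was left out, with an estimate of 0.15 and an adjusted p of 0.05241 for 0 h replicate 1, 0.10 and 0.1061 for 4 h replicate 3, and 0.13 and 0.06333 for 24 h replicate 3. With numbers 4, 5 and 6 alone it was 0.00. The Foxo1 to Foxo3 ratio per kb was 1.83 to 1.96 in 1 and 4, above every library of 2 and 5 (1.16 to 1.37) and of 3 and 6 (1.30 to 1.54), while the latter 2 ranges overlap.

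**Figure D2:**
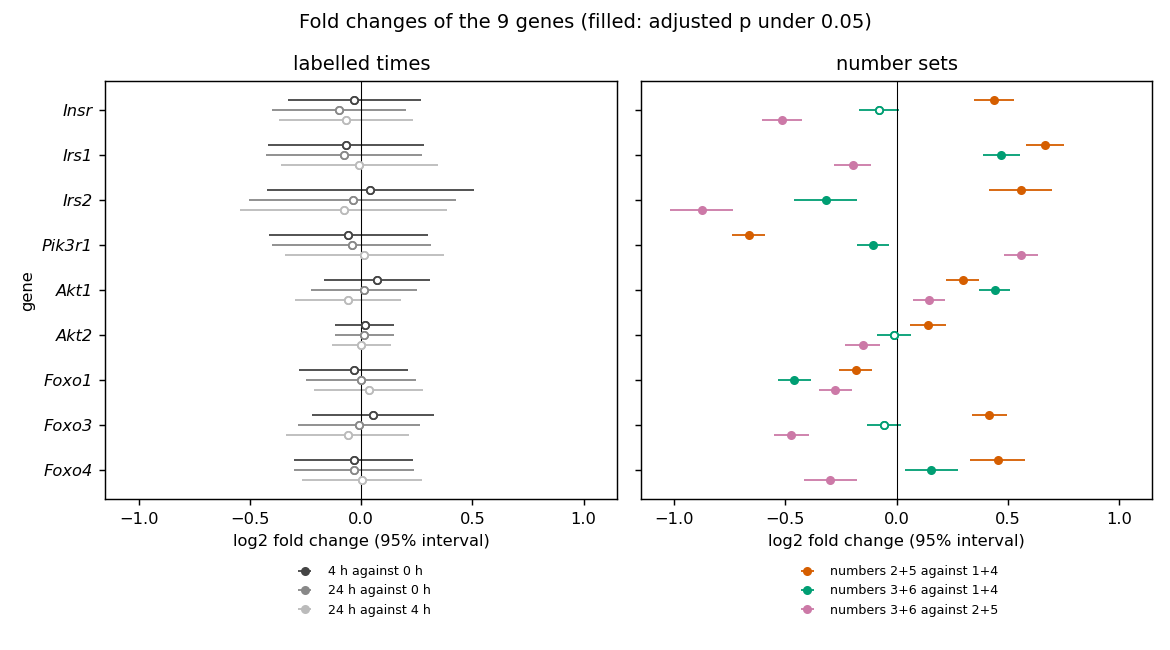
Log2 fold change of the 9 genes with its 95% interval, between labelled times (left) and between number sets (right); filled points passed the edgeR test. No point is filled on the left, and on the right all are except Insr, Akt2 and Foxo3 in numbers 3 and 6 against 1 and 4; Pik3r1 in that comparison and Irs1, Akt2 and Foxo1 in 3 and 6 against 2 and 5 changed sign with totals-only scaling.

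Within a set the 2 numbers were alike. With time and number in the model, a comparison added after the data were seen, 0 of 9 members were called for number 4 against 1, 5 against 2 or 6 against 3 (edgeR), beside 1, 0 and 0 of all genes (0.00676%, 0% and 0%). The largest of these 27 member differences was Foxo4 in number 6 against 3, at log2 -0.21 (SE 0.07, adjusted p = 0.2432). Time effects did not differ detectably between sets either. The interaction of time and set was called for 0 of 9 members and 0 of all genes (0%), with an unadjusted p under 0.05 for 415 genes. DESeq2's likelihood ratio test called 1 gene, and edgeR without a filter on low counts 302, none of them a member. Irs2 had the lowest unadjusted interaction p of the 9 (0.04304, adjusted p = 0.9998), with 24 h against 0 h at log2 0.17 in numbers 1 and 4, -0.17 in 2 and 5 and -0.05 in 3 and 6.

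**Figure D3:**
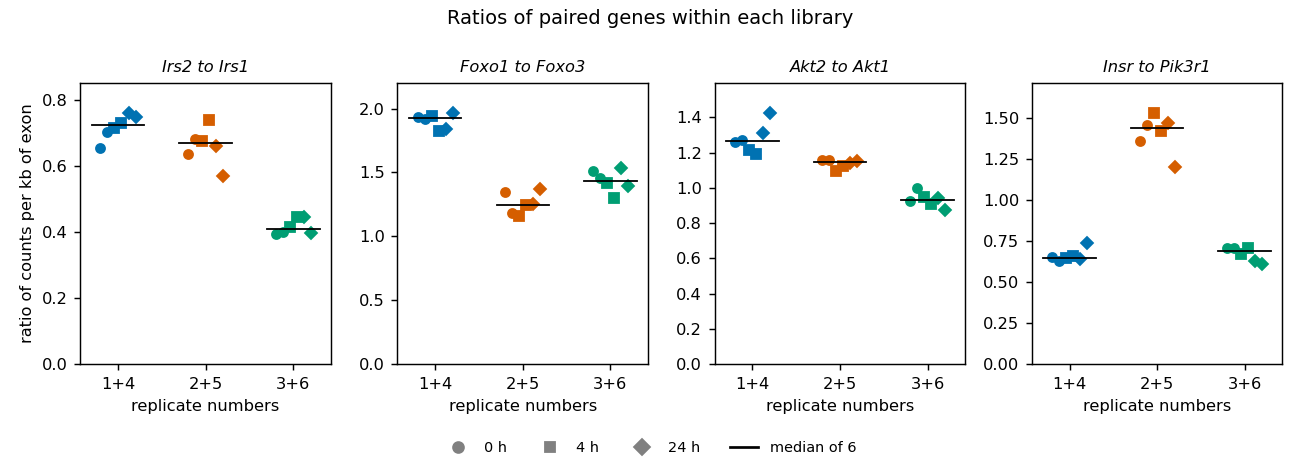
Ratios of counts per kb of exon between 2 genes in the same library, by number set, with the median of 6 as a bar and the labelled time as the shape. Numbers 3 and 6 are lowest for Irs2 to Irs1 (0.394 to 0.446), 1 and 4 highest for Foxo1 to Foxo3 (1.83 to 1.96), and 2 and 5 highest for Insr to Pik3r1 (1.201 to 1.53).

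Per kb of exon the RNAs of the docking proteins had the highest means of the 9. Over the 18 libraries Irs1 had 53.7 ± 10.48 CPM per kb (SD, n = 18) and Irs2 31.7 ± 8.85. Pik3r1 followed at 21.5 ± 4.23, Insr at 18.2 ± 3.25, Akt2 at 17.6 ± 1.19, Akt1 at 16.03 ± 2.13 and Foxo1 at 14.9 ± 2.05. Foxo3 at 9.92 ± 1.61 and Foxo4 at 8.03 ± 1.24 came last. Irs1 exceeded Irs2 in every library, whereas Insr and Akt2, and Akt1 and Foxo1, differed by less than the SD of either gene. Pik3r1 and Insr, and Akt2 and Akt1, differed by less than the larger SD of the pair but more than the smaller, and Foxo3 and Foxo4 by more than both. Irs1 had the highest mean in each set, but the order below it differed between sets. In numbers 3 and 6, Irs2 (23.37 per kb) did not exceed Pik3r1 (23.44), and Akt1 (18.1) exceeded Akt2 (16.9) and Insr (15.7). In numbers 2 and 5, Pik3r1 (15.95) was below Insr (22.4), Akt2 (18.9) and Akt1 (16.6). In numbers 1 and 4, Foxo1 (17.15) exceeded Akt2 (17.07), Insr (16.58) and Akt1 (13.38). With the length of the longest transcript in place of all exons, Insr (26.8) and Akt2 (27.6) exchanged places. Irs2 (31.7 ± 8.85) and Pik3r1 (30.5 ± 6.00) then differed by less than the SD of either.

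In 6 of the 9 genes (66.7%) the mean was highest in numbers 2 and 5, where 32.4% of all genes were. The exceptions were Pik3r1 and Foxo1, highest in 1 and 4, and Akt1, highest in 3 and 6. As a description over the 18 libraries, which share the 3 sets, log2 CPM of Insr and Irs2 had a Pearson r of 0.93, Insr and Foxo3 0.92 and Irs2 and Foxo3 0.91. Pik3r1 ran against Foxo3 at -0.92, and Akt1 against Foxo1 at -0.85.

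Pathway genes around the 9 were read from lists fixed by known role. None of their 121 tested genes was called between labelled times by edgeR. Each count below stands beside all genes, of which 29.6% were higher and 29.9% lower in numbers 2 and 5 against 1 and 4, 30.2% and 29.5% in 3 and 6 against 1 and 4, and 28.6% and 28.5% in 3 and 6 against 2 and 5. In lists of 9 to 18 genes, counts near these shares are no result about the list. Of 9 receptor and adaptor genes, 2 were higher and 4 lower in numbers 2 and 5 than in 1 and 4, 4 and 3 in 3 and 6 against 1 and 4, and 5 and 2 in 3 and 6 against 2 and 5. Igf1r, the receptor closest to Insr, had 16.4 to 19.1 CPM in 1 and 4, 37.1 to 43.3 in 2 and 5 and 26.1 to 28.2 in 3 and 6. These ranges do not overlap, and Igf1r was higher than in 1 and 4 by log2 1.25 in 2 and 5 (SE 0.05, adjusted p = 9.129e-19) and 0.64 in 3 and 6 (SE 0.05, adjusted p = 2.16e-12). Sh2b2, an adaptor of the active receptor, stood at log2 -0.51 in 2 and 5 and -0.35 in 3 and 6 against 1 and 4.

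Among 10 other PI3-kinase genes, 3 were higher and 4 lower in numbers 2 and 5 against 1 and 4, 3 and 1 in 3 and 6 against 1 and 4, and 4 and 4 in 3 and 6 against 2 and 5. The catalytic subunit Pik3ca had 79.1 to 86.9 CPM in 1 and 4, 113 to 124 in 2 and 5 and 86.5 to 90.4 in 3 and 6. It was thus highest in the set where Pik3r1 was lowest, by log2 0.53 over 1 and 4 (SE 0.03, edgeR adjusted p = 9.678e-14). The other regulatory subunits Pik3r2 (log2 -0.65, SE 0.05) and Pik3r3 (log2 -0.63, SE 0.06) were lower in 2 and 5 than in 1 and 4, as Pik3r1 was, with adjusted p = 1.176e-11 and 7.747e-10.

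Of 13 genes of AKT activation and the mTOR complexes, 5 were higher and 4 lower in numbers 2 and 5 against 1 and 4. The counts were 5 and 4 in 3 and 6 against 1 and 4, and 3 and 5 in 3 and 6 against 2 and 5. Deptor, an inhibitor of mTOR, was higher by log2 0.64 in 2 and 5 than in 1 and 4. Sgk1, a kinase related to AKT that also phosphorylates FOXO, had 31.5 to 38.9 CPM in 1 and 4, 12.6 to 17.98 in 2 and 5 and 10.2 to 13.04 in 3 and 6. It was above all 12 others in 1 and 4, with log2 -1.02 in 2 and 5 (SE 0.07, edgeR adjusted p = 5.648e-12) and -1.58 in 3 and 6 (SE 0.07, adjusted p = 7.885e-16).

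Of the 18 tested brakes on insulin signalling, 7 were higher and 7 lower in both 2 and 5 and 3 and 6 against 1 and 4, and 4 higher and 7 lower in 3 and 6 against 2 and 5. Trib3, a pseudokinase that can bind AKT, had 49.3 to 66.6 CPM in 1 and 4, 33.8 to 37.6 in 2 and 5 and 13.2 to 18.7 in 3 and 6, with no overlap. Pik3ip1, an inhibitor of PI3-kinase, was higher by log2 1.35 (SE 0.07) in 2 and 5 than in 1 and 4, with adjusted p = 8.625e-15.

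Of 14 AKT substrates and effectors, 4 were higher and 6 lower in numbers 2 and 5 against 1 and 4, 5 and 5 in 3 and 6 against 1 and 4, and 6 and 5 in 3 and 6 against 2 and 5. Slc2a4, the insulin-responsive glucose transporter GLUT4, was measured at 193 to 204 CPM in 1 and 4, 54.4 to 66.7 in 2 and 5 and 61.7 to 81.8 in 3 and 6. Numbers 1 and 4 lay far above both others, and Slc2a4 was lower by log2 -1.71 in 2 and 5 (SE 0.05, edgeR adjusted p = 4.049e-20) and -1.45 in 3 and 6 (SE 0.05, adjusted p = 2.81e-19). Tbc1d4, the AKT substrate that holds GLUT4 vesicles inside the cell, had 72.3 to 80.7 CPM in 1 and 4, 39.4 to 44.8 in 2 and 5 and 56.2 to 64.0 in 3 and 6. Its 3 ranges were apart, with log2 -0.87 in 2 and 5 and -0.36 in 3 and 6 against 1 and 4. Pde3b, the AKT-activated enzyme that breaks down cAMP, was lower in 3 and 6, by log2 -1.07 against 1 and 4 and -0.91 against 2 and 5.

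**Figure D4:**
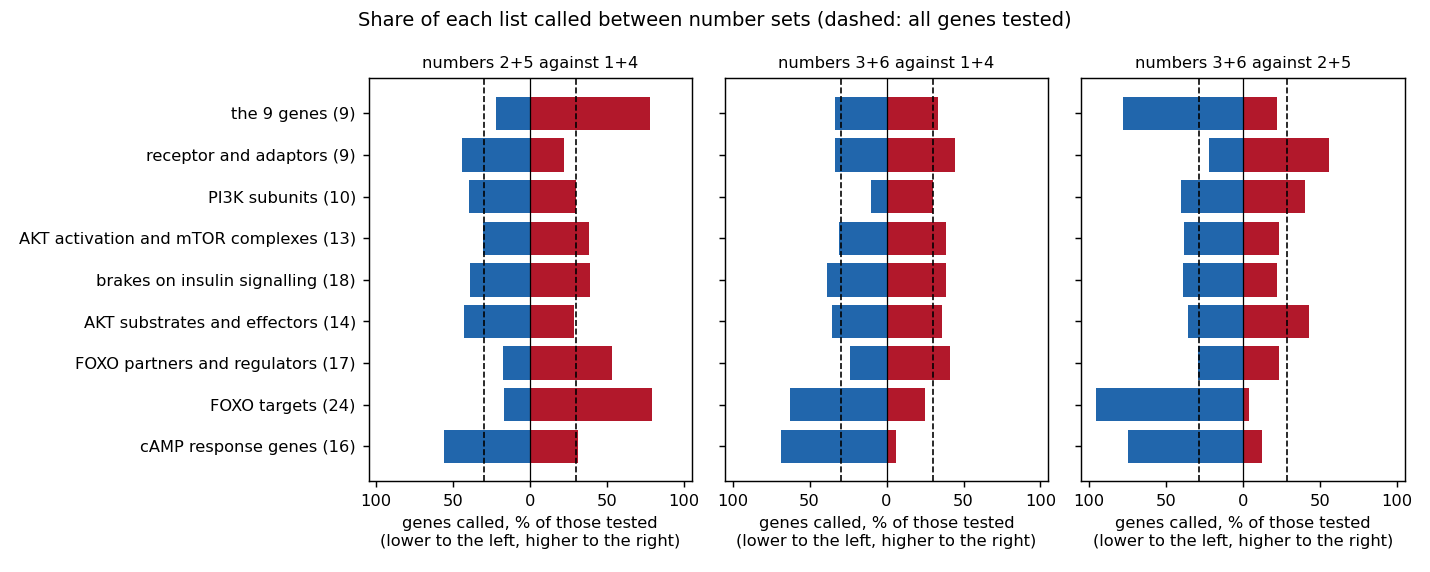
Share of tested genes of each list called higher (red, to the right) or lower (blue, to the left) by edgeR in the 3 comparisons of number sets, with the number tested in brackets and the share over all genes as dashed lines. FOXO targets reach past the dashed line on a single side, with 19 of 24 higher in numbers 2 and 5 against 1 and 4 and 23 of 24 lower in 3 and 6 against 2 and 5. Other bars do so too. The 9 genes had 7 higher and 2 lower, then 2 and 7, in the same 2 comparisons, and FOXO partners 9 of 17 higher in the first. The cAMP response genes had 11 and 12 of 16 lower in 3 and 6 against 1 and 4 and against 2 and 5.

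FOXO partners and regulators, such as 14-3-3 proteins that hold phosphorylated FOXO in the cytoplasm, had 9 of 17 higher and 3 lower in numbers 2 and 5 against 1 and 4. The counts were 7 and 4 in 3 and 6 against 1 and 4, and 4 and 5 in 3 and 6 against 2 and 5. Sirt1, a deacetylase of FOXO, was higher by log2 0.41 in 2 and 5 than in 1 and 4 and lower by -0.51 in 3 and 6 than in 2 and 5. Ywhag, a 14-3-3 gene, was lower in both against 1 and 4, by log2 -0.35 and -0.33.

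Known FOXO target genes were mostly highest in numbers 2 and 5. Foxo3 and Foxo4 were highest in that set, while Foxo1, the most abundant of the 3 per kb, was below 1 and 4. A link between these FOXO levels and the targets was not tested. Of 27 listed, 24 were tested, and 18 of these (75%) had their highest mean in numbers 2 and 5, beside 32.4% of all genes. Against 1 and 4, numbers 2 and 5 had 19 of 24 higher and 4 lower, where 29.6% and 29.9% of all genes were (median log2 0.62, beside 0.00 over all genes). In 3 and 6 against 2 and 5, 1 was higher and 23 lower, beside 28.6% and 28.5% (median -0.72, beside 0.00). In 3 and 6 against 1 and 4, 6 were higher and 15 lower, beside 30.2% and 29.5% (median -0.23, beside 0.00). These counts were the same without 24 h replicate 5, except for 16 lower in the last. With totals-only scaling they were 13 and 3, 1 and 15, and 5 and 6 in the same order. Of all 14788 genes, 1348 and 2440, 4406 and 724, and 3404 and 1132 were called with that scaling. The list was chosen with earlier results of these data known.

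Fbxo32, a ubiquitin ligase of muscle wasting driven by FOXO, had 6.66 to 10.1 CPM in 1 and 4, 23.7 to 27.3 in 2 and 5 and 5.80 to 7.78 in 3 and 6. Every library of 2 and 5 exceeded every other, by log2 1.66 over 1 and 4 (SE 0.08, edgeR adjusted p = 8.52e-16), and 3 and 6 stood at -1.96 (SE 0.08, adjusted p = 6.625e-17) against 2 and 5. Gabarapl1, which builds autophagosomes, had 30.2 to 42.0 CPM in 1 and 4, 88.8 to 99.1 in 2 and 5 and 40.7 to 48.0 in 3 and 6. Ccng2, a cyclin of cell cycle arrest, had 61.1 to 68.1, 91.5 to 109 and 30.6 to 35.0 CPM in the same order, with 3 separate ranges.

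Other targets differed from that order. Pck1, of glyceroneogenesis, was highest in 3 and 6 at 29.6 to 34.7 CPM, with 17.2 to 22.8 in 2 and 5 and 9.49 to 10.6 in 1 and 4. Gadd45a, a DNA damage response gene, was highest in 1 and 4 at 33.5 to 37.5 CPM, with 19.5 to 25.0 in 2 and 5 and 7.60 to 9.06 in 3 and 6. The 24 genes therefore fell into more than 1 pattern. Of 29 promoters of 25 listed targets, 4 (13.8%) held the FOXO core shown above for Akt1, beside 3.65% of all promoters. The insulin response element shown for Irs1 and Irs2 was in 2 (6.9%), beside 2.51%. Both target counts left out promoters on 1 chromosome, which the shares of all promoters include. The genes were listed as known FOXO targets, so these shares describe the list, and their difference was not tested. Trim63, with the FOXO core, and Igfbp1, with the insulin response element, were not among the 24 genes.

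**Figure D5:**
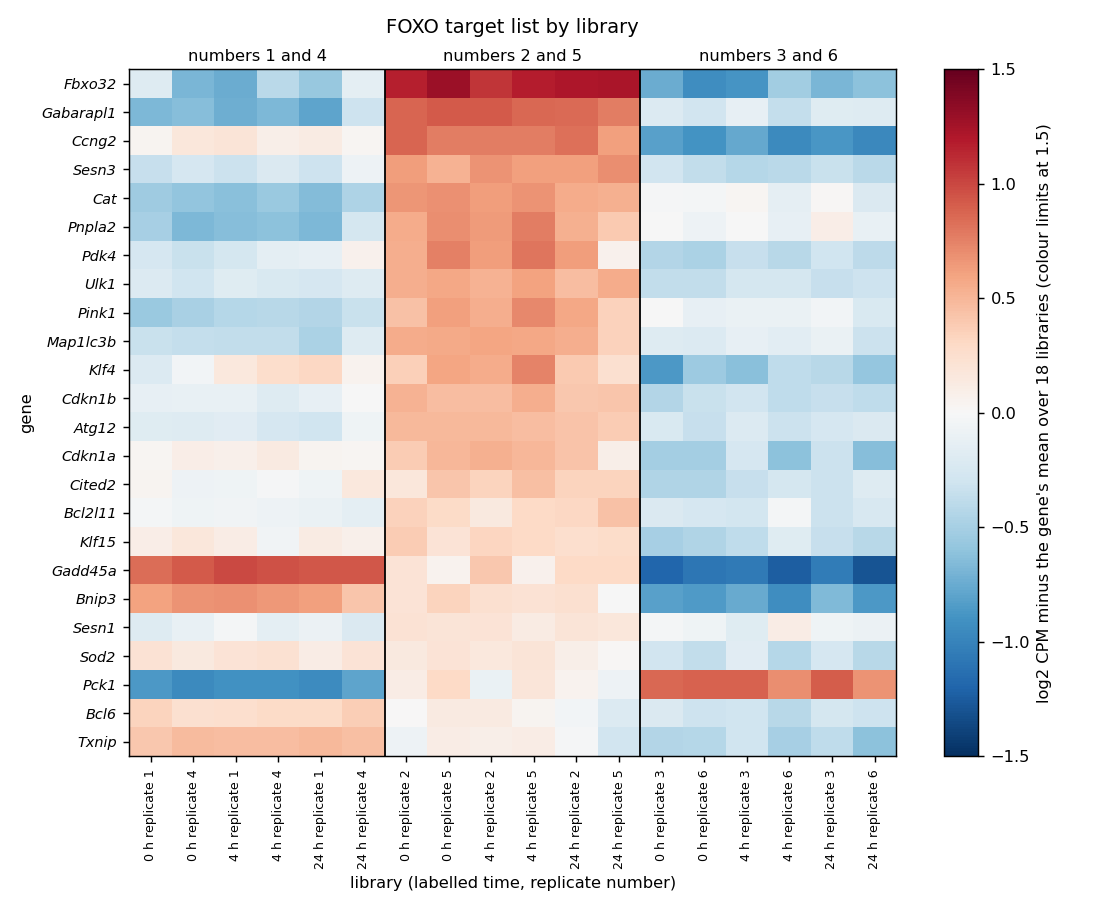
Log2 CPM of the 24 tested FOXO target genes in each library, minus the gene's mean over 18 libraries, with colour limits at 1.5; columns are libraries grouped by number set and, within it, by labelled time. Most rows are red in numbers 2 and 5 at every labelled time, Gadd45a and Bnip3 are red in 1 and 4, and Pck1 is red in 3 and 6.

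Other measures also moved with the number sets, and their part in the differences above was not tested. Of 16 genes of the cAMP response, the arm that norepinephrine drives, 5 were higher and 9 lower in numbers 2 and 5 against 1 and 4, 1 and 11 in 3 and 6 against 1 and 4, and 2 and 12 in 3 and 6 against 2 and 5. Of all genes, 28.5% to 30.2% were called in each direction in these comparisons. Fos was lower by log2 -4.96 and -5.77 in 2 and 5 and in 3 and 6 against 1 and 4. Between labelled times 0 of the 16 were called by edgeR. Summed over 10 preadipocyte and fibroblast markers, of which Dpp4 was at 0 in 15 libraries, the level was 827 to 962 CPM in 1 and 4, 1063 to 1533 in 2 and 5 and 1583 to 1983 in 3 and 6. The collagens Col1a1 and Col3a1, at medians of 516.8 and 425 CPM, were the largest parts of this sum. Of the 7 markers tested, 6, 7 and 6 were higher in the 3 set comparisons and 0 lower.

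The 9 brown adipocyte markers summed to 4124 to 4321 CPM in numbers 1 and 4, 3172 to 3628 in 2 and 5 and 3490 to 4246 in 3 and 6, with Fabp4 at a median of 2178 CPM the largest part. Single markers went both ways, with 4 higher and 4 lower in 2 and 5 against 1 and 4, 3 and 4 in 3 and 6 against 1 and 4, and 4 and 2 in 3 and 6 against 2 and 5. The 6 macrophage markers summed to 2.90 to 4.24 CPM and the 5 endothelial markers to 0.332 to 1.52 CPM over all 18 libraries. Of 5 skeletal muscle markers 1 was tested, and it was lower in 2 and 5 than in 1 and 4 and lower in 3 and 6 than in both. Among 6 RNA quality genes 0, 2 and 1 were called, all lower, in the 3 set comparisons.

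By likeness of log2 CPM over the 18 libraries, among 8970 genes with a mean log2 CPM of at least 3, the members' closest genes were named as a description. Insr was closest to Rsrp1 (Pearson r 0.98), Irs1 to Pdzd2 (0.99), and Irs2 to Tfdp2 (0.98), with the pyruvate dehydrogenase kinase Pdk4 in the third place (0.97). For Pik3r1 the nearest were Sqle and Cyp51, enzymes of sterol synthesis (both 0.98). Akt1 was closest to Wdr36 (0.97), Foxo1 to Klf13 (0.97), Foxo3 to Npc1 (0.97), Foxo4 to Coa5 (0.95) and Akt2 to Dctn2 (0.92). Such likeness was common, since 2.45% to 2.98% of the 8970 genes had an r above 0.9 with each of Insr, Irs1, Irs2, Pik3r1, Akt1, Foxo1 and Foxo3. For Foxo4 that share was 0.379%, and for Akt2 0.0669%.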

How the data were processed

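The values are expected counts of each gene, estimated by salmon and deposited as 1 merged table, per its name and the labels; the submitters' processing notes name mm10, edgeR and limma. Neither salmon's version, nor its annotation or strand setting, is given in the sources used here. The kit selects strand, per the labels' protocols. Of the 45706 identifiers, 45143 were found in GENCODE M21 (mm10), from which positions and exon lengths came, and 27.4% of values above 0 were not whole. Expected counts were rounded, and filterByExpr (minimum count 10, minimum total 15) kept 14788 genes holding at least 99.9% of each library. Scaling was by TMM, log2 CPM used a prior count of 2, and levels are given as mean ± SD or as lowest, median and highest.

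Times were tested with edgeR 4.0.16 (robust quasi-likelihood F-test over 18 libraries, time as the only factor) in R 4.3.3, and number sets with time and set in the model. P-values were two-sided, Benjamini-Hochberg adjusted over all genes, with a threshold of 0.05. Alternatives used DESeq2 1.42.0, limma 3.58.1 (voom), other scalings and filters, a replicate block and subsets of libraries. The code was tested on simulated data.

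The members, sets and lists were chosen with earlier results of these data known. Besides the members, the genes named are, per list and set comparison, up to 2 called genes with the largest rise and 2 with the largest fall at a mean log2 CPM of at least 3. Igf1r, Pik3ca, Tbc1d4 and Slc2a4 are named as well (1 further gene chosen with them is not reported here), and per member the 3 genes most alike were sought. The symbols shown are a selection of these. Of 130 entries in 8 pathway lists 121 were tested. The block is the number in the titles, whose meaning no label gives. Deviations from group means correlated at a median of 0.59 (0.297 to 0.718) in the 18 pairs of libraries of the same number. The median was 0.569 (0.237 to 0.688) between numbers of the same set and -0.27 between sets. Libraries thus went together by set, and these values do not show that a number pairs them beyond its set.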

Additional observations from a re-analysis of the deposited data

Results flagged for a closer look

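Groups of 6 libraries, 54 in all (9 genes by 3 sets, and by 3 labelled times), were checked for a single library far from the rest. Such a library was found in 2 of the 54, where chance gives about 1 in 20 groups, so this is no excess. The groups by labelled time mix the 3 sets. Akt2 in 24 h replicate 4 was 130.5 CPM, with the nearest other library of numbers 1 and 4 at 122 CPM. Foxo3 in 4 h replicate 6 was 74.24 CPM, with the nearest other library of numbers 3 and 6 at 65.17 CPM. No call of either gene changed without these libraries.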

How the results depend on the processing

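With the replicate block (pairing libraries by number), 0 members were called in each time comparison and 9, 6 and 9 in numbers 2 and 5 against 1 and 4, 3 and 6 against 1 and 4, and 3 and 6 against 2 and 5, so the block changed no member's call. DESeq2, limma-voom, DESeq2's size factors, no filter, unrounded counts and leaving time out also kept each of these counts within 1.5 times. Leaving out 1 library at a time gave 9 to 9, 5 to 6 and 9 to 9 members.

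Scaling by library totals alone, with 24 h replicate 5 counted with its ribosomal RNA, called 3, 2 and 3 members, and 3788 (1348 higher), 4536 (3404 higher) and 5130 (4406 higher) of all genes against 8806, 8833 and 8440. It moved the median of all genes by -0.09, 0.17 and 0.25 on the log2 scale, and by -0.17 at 24 h against 0 h. It reversed Pik3r1 (0.0563) in 3 and 6 against 1 and 4, and Irs1 (0.0667), Akt2 (0.124) and Foxo1 (0.00223) in 3 and 6 against 2 and 5. In an alternative chosen after seeing the data, totals alone without 24 h replicate 5, medians moved by 0.04, 0.16 and 0.11, and 8426 (4803 higher), 9423 (6970 higher) and 8463 (5871 higher) genes were called. There Pik3r1 (0.0514) and Akt2 (0.148, edgeR adjusted p = 0.001929) reversed in 3 and 6 against 1 and 4. Member differences under about these shifts thus depend on the scaling.

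Numbers 4, 5 and 6 alone called 3 members in 3 and 6 against 1 and 4, beside 6741 of all 14788 genes. The 24 h libraries alone called 5 members in 3 and 6 against 2 and 5, beside 3426 of all genes. Both settings have fewer libraries. All genes called were 4835, 4834 and 4367 within 4 h and 3699, 4511 and 3426 within 24 h. The order of levels per kb changed for 2 members with the longest transcript. Totals of 7010742 to 26501223 counts limit precision, and Foxo4, the least abundant member, had an SE of 0.06 between sets.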
